A study of Mus musculus with 4 samples.

Results

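Glutathione transferases of the mu, pi and theta classes were followed in transformed mouse fibroblasts with and without phorone, an unsaturated ketone known as a reagent that binds and depletes glutathione. The 10 genes were Gstm1, Gstm2, Gstm4, Gstm5, Gstm6 and Gstm7 of the mu class, Gstp1 of the pi class, and Gstt1, Gstt2 and Gstt3 of the theta class. The 10 genes were chosen with earlier results of these data known, and their probes were taken by name alone. Every probe for a gene whose design name is one of these 10 was included. That gave 13 probes among the 40628 gene probes of the array. Gstm1, Gstm7 and Gstp1 had 2 probes each and the other 7 genes had 1.

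The cells were C3H10T1/2, a mouse embryo fibroblast line, and all 4 samples had been chemically transformed. Per the labels' protocols they received the carcinogen 3-methylcholanthrene at 2.5 µg/ml for 2 days, spent 4 days in fresh medium, were given the phorbol ester TPA at 100 ng/ml over the following 2 weeks, and then grew for 4 weeks in normal medium. The control group (n = 2) was transformed cells alone, and the phorone group (n = 2) was transformed cells exposed to 2 mM phorone. For how long the cells were exposed, and in which vehicle, the sources used here do not give. No untransformed cells are compared here, so every difference is between transformed cells with and without phorone. Nothing in the labels tells whether the 2 samples of each group were grown as separate cultures. A p-value here therefore measures the spread between these particular samples alone, which may be technical. In such bulk samples fewer cells of a type and less RNA per cell cannot be told apart.

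Total RNA was measured on 4 one-colour arrays of 1 slide. The scanner software placed 51.1% to 52.7% of spots well above background, no spot was saturated, and precision is limited by having 4 arrays. Array to array correlations were 0.987 within the control group, 0.995 within the phorone group, and 0.936 to 0.951 between groups. The slide held the control arrays in 1 row and the phorone arrays in the other, and the effect of the row cannot be told apart from that of phorone. Levels below are log2 signal minus the 75th percentile of the same array, so a level of 0 is that percentile, and no level of 1 probe is set against that of another. Changes are phorone minus control on the same log2 scale with their standard error (SE), tested with limma and called at an adjusted p below 0.05.

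Glutathione transferases of these classes are soluble enzymes that act as pairs of subunits. They join the thiol of glutathione to electrophiles, which makes these more soluble and ready for export. Mu and pi subunits activate the thiol through a tyrosine, theta subunits through a serine, and each class is known for its own range of substrates. In the mouse the genes of the mu class lie side by side on 1 chromosome, as do those of the pi and of the theta class. Several transferase genes are known targets of NRF2, the transcription factor that electrophiles release from KEAP1.

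Since genes of a class are close copies of each other, the probes that read them are shown first. All are 60 bases long, the deposited files list them without a genome position, and all 13 carried a transcript accession that RefSeq assigns to the gene of the same name. Below, capitals mark the longest run of bases that 2 probes share when laid against each other without gaps. The brighter Gstm1 probe and the Gstm2 probe were the most alike pair, with 31 identical bases of 60 and a longest shared run of 9, and bases 31 to 60 of each are given.

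Gstm1 brighter probe: tctgtctcgtctaCAATAAAGTctgaaaca

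Gstm2 probe: cccatttggttctCAATAAAGTgtgaatca

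The shared run holds AATAAA, the usual polyadenylation signal. Gstm5 and Gstm6, whose probes both fell, had 27 identical bases and a shared run of 10.

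Gstm5 probe: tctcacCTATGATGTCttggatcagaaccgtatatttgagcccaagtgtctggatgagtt

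Gstm6 probe: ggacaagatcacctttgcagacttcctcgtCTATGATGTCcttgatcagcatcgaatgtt

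Gstt1 and Gstt2, which moved in opposite directions, shared 24 identical bases and a run of 8. The first 30 bases of the Gstt1 probe and the whole Gstt2 probe are given.

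Gstt1 probe: cttcggagaagctgCCTCAGGGccctgtgg

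Gstt2 probe: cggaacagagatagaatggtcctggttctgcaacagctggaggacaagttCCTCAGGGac

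The accessions of the brighter Gstp1 probe belong to both Gstp1 and Gstp2, so its signal may hold either transcript. Only Gstp1 is listed for the dimmer probe.

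Gstp1 brighter probe: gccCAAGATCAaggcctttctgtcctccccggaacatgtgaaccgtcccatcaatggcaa

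Gstp1 dimmer probe: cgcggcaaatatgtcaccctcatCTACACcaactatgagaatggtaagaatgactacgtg

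In this pair the capitals mark the longest run shared with the most alike member probe of another gene, by identical bases, which is the Gstm6 probe for the brighter and the dimmer Gstm1 probe for the dimmer. Across the whole array the closest probe of any other gene had 31 to 34 of 60 bases in common with a member probe. Transcript sequences were not used here, so binding of a probe to the transcript of a paralog was not tested.

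Of the 13 probes, 11 were tested, each being well above background on the 2 arrays of 1 group or on those of both groups. The brighter Gstm1 probe and the Gstt2 probe rose, the probes for Gstm2, Gstm5, Gstm6 and Gstt1 fell, and 5 were not called, the dimmer Gstm1 probe among them. Thus 2 of 11 probes were higher, against 25.5% of all 24207 gene probes tested, and 4 of 11 were lower, against 20.3%. Keeping only probes well above background on all 4 arrays left out Gstm6 and Gstm7. Of the 9 member probes then tested 2 were higher and 3 lower, against 6317 and 4447 of 22220 gene probes. In all, 45.8% of the tested gene probes were called in one direction or the other. The median change of the 11 probes was -0.21 and that of all tested probes 0.11. Arrays of the groups did not overlap for 9 of the 11 probes, where 77.9% of all tested probes had this. Scaling the arrays on 7 spike-in probes instead raised the median change of all probes by 0.43, to 0.54. It gave 4453 higher and 1611 lower probes in place of 6168 and 4919. Under that scaling 1 member probe was higher and 2 were lower. The mean spike-in signal stood 2.76 and 3.41 above the 75th percentile in control samples and 2.74 and 2.55 above it in phorone samples. Control replicate 2 thus stood apart from the other arrays, and the shift rests largely on it.

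**Figure D1:**
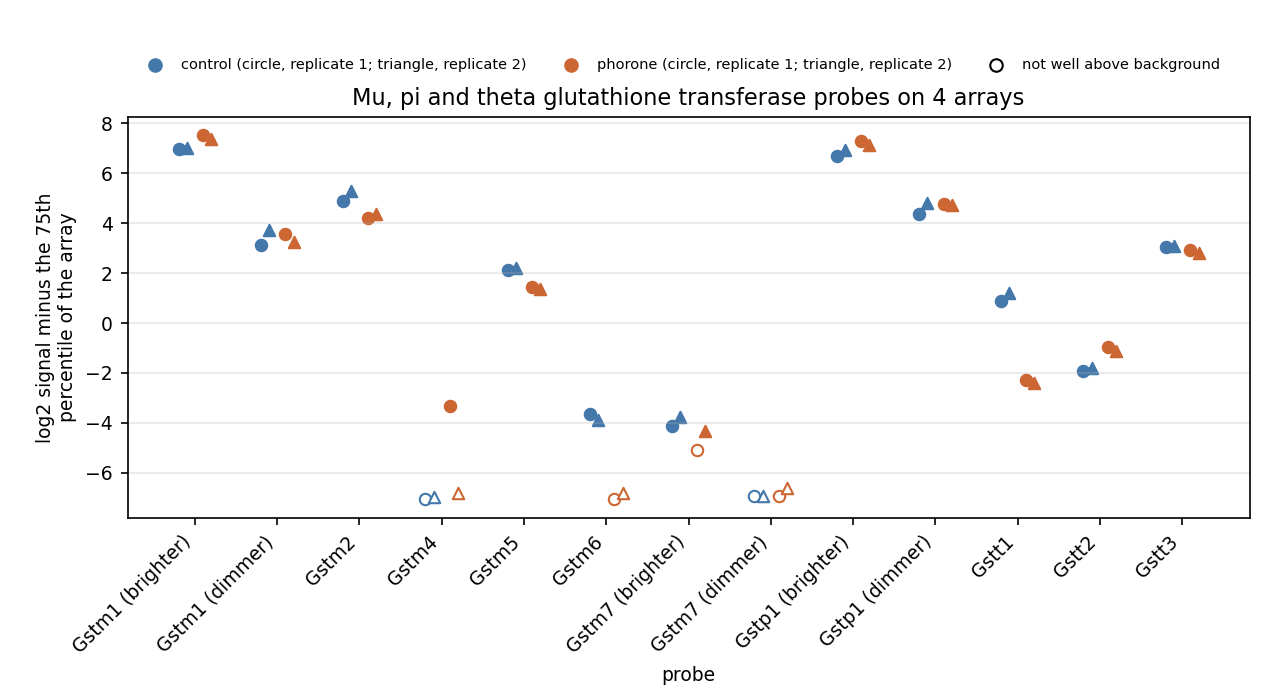
Level of each of the 13 member probes on each array, as log2 signal minus the 75th percentile of the array; blue is control, orange phorone, circles replicate 1, triangles replicate 2, and open symbols were not well above background. The Gstt1 and Gstm6 symbols of the groups lie far apart, those of the Gstm1 dimmer probe overlap, and Gstm4 is well above background on 1 array.

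In the mu class, the main cytosolic transferases of liver and many other tissues, 6 probes were tested. Of these 1 rose and 3 fell, against 25.5% higher and 20.3% lower among all gene probes tested. Gstm1, the best-known mu subunit of mouse liver, had levels of 6.96 and 7.01 in the control samples and 7.51 and 7.38 in the phorone samples on its brighter probe. Both phorone values were above both control values. The rise was 0.46 (SE 0.13, limma adjusted p = 0.0364). This call was lost in 10 of 17 alternatives, among them the removal of any 1 of the 4 arrays, while the change stayed between 0.23 and 0.89. The dimmer Gstm1 probe read 3.12 and 3.72 in control and 3.58 and 3.26 in phorone samples, and the groups overlapped. Its change was -0.0020 (SE 0.25, adjusted p = 0.995), with a sign that spike-in scaling turned to 0.43.

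Gstm2, whose human counterpart is known to conjugate the dopamine product aminochrome, was at 4.90 and 5.30 in control samples and at 4.22 and 4.36 in phorone samples. Every phorone value was below every control value. The fall was -0.81 (SE 0.18, adjusted p = 0.0195). It was not called under spike-in scaling, at -0.38, with dim probes kept in the test, or without phorone replicate 1 or phorone replicate 2.

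Gstm5 is a mu subunit known from testis and brain. Its levels were 2.11 and 2.22 in control samples and 1.45 and 1.37 in phorone samples, again with no overlap. The change was -0.75 (SE 0.13, adjusted p = 0.00875), and it lost its call under spike-in scaling, at -0.32, and without phorone replicate 2, at -0.71.

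Gstm6 was detected with certainty in 1 group only. Control samples read -3.66 and -3.90, both well above background, and phorone samples read -7.05 and -6.81, neither of them well above background. As a bound, computed against the lowest signal still well above background on each phorone array, Gstm6 was at least 1.86-fold lower with phorone. The probe entered the test through its control arrays alone. The measured difference was -3.15 (SE 0.16, limma adjusted p = 0.000475) on the processed signal and -0.38 after normexp background correction. It was called under both, but this p-value belongs to the measured difference and does not measure the bound.

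The remaining mu genes lay near background. Gstm7 read -4.12 and -3.77 in control samples on its brighter probe and -5.07 and -4.31 in phorone samples, of which phorone replicate 1 was not well above background. The groups did not overlap, but the change of -0.74 (SE 0.29) was not called (adjusted p = 0.0897). Without phorone replicate 2, which left the dim replicate 1 as the only phorone array, it was -1.12 and called (adjusted p = 0.0253). Without phorone replicate 1 it was -0.36 (adjusted p = 0.311), and with normexp background correction -0.12 (adjusted p = 0.439). The other Gstm7 probe, at -6.94 to -6.62, was well above background on no array. Gstm4 was at -7.06 and -6.97 in control samples and at -3.34 and -6.80 in phorone samples. Only phorone replicate 1 was well above background for Gstm4, so neither Gstm4 nor the dimmer Gstm7 probe was tested in the main fit.

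Unequal change within the mu class does not depend on how arrays are scaled, since a difference between 2 probes of 1 array is free of it. Relative to the brighter Gstm1 probe, Gstm2 changed by -1.27 (combined SE 0.22), and by -1.59 to -0.95 over the 4 pairings of a control with a phorone array. Gstm5 changed by -1.21 relative to the same probe (combined SE 0.18, range -1.27 to -1.16). The dimmer Gstm1 probe changed by 0.46 less than the brighter one (combined SE 0.28, range 0.09 to 0.84), and against it the gaps were smaller, -0.81 for Gstm2 (combined SE 0.31, range -1.14 to -0.48) and -0.75 for Gstm5 (combined SE 0.28, range -1.12 to -0.38). All pairings of arrays thus put Gstm2 and Gstm5 below either Gstm1 probe in their change. Against Gstm3, a further mu gene whose own change of 0.14 (SE 0.19) was not called, Gstm2 changed by -0.95 (combined SE 0.26, range -1.19 to -0.70). These pairs were chosen after the values were seen and carry no test.

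Gstp1 encodes the pi subunit, which besides conjugation is known to bind the stress kinase JNK and is abundant in many tumours. Its brighter probe read 6.68 and 6.92 in control samples and 7.27 and 7.12 in phorone samples. Both phorone values lay above both control values. The change of 0.39 (SE 0.15) was nevertheless not called (adjusted p = 0.0877), though it was with normexp background correction, at 0.37 (adjusted p = 0.0354), and with an intensity trend in the variance prior (adjusted p = 0.0280).

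On the dimmer Gstp1 probe, levels were 4.37 and 4.81 in control and 4.77 and 4.72 in phorone samples, with overlap. That change was 0.15 (SE 0.18, adjusted p = 0.529). The 2 Gstp1 probes differed in their change by 0.24 (combined SE 0.24), which is within their error. The brighter Gstm1 and Gstp1 probes changed by nearly the same amount, with a difference of 0.07 (combined SE 0.20, range -0.04 to 0.18).

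In the theta class, known for small halogenated compounds and other substrates that the mu and pi enzymes handle poorly, 3 genes took 3 courses. Gstt1, the enzyme known for activating dichloromethane, was at 0.89 and 1.21 in control samples and at -2.28 and -2.40 in phorone samples. All 4 values were well above background and the groups were far apart. The fall was -3.39 (SE 0.16, adjusted p = 0.000424). It was called in all 17 alternatives, with changes from -3.56 to -2.81.

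Gstt2, known for activity towards sulphate esters and organic hydroperoxides, moved the other way. Control samples read -1.91 and -1.79 and phorone samples -0.97 and -1.11, with no overlap. Gstt2 rose by 0.81 (SE 0.14, adjusted p = 0.00838). The call was lost without phorone replicate 1, where the change was 0.74 (adjusted p = 0.0524), and in no other alternative run.

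Gstt3 stood at 3.06 and 3.09 in control samples and at 2.92 and 2.81 in phorone samples. These values did not overlap, yet the change of -0.21 (SE 0.13) was not called (adjusted p = 0.231), and under spike-in scaling it was 0.23. Within arrays, Gstt1 changed by -4.20 relative to Gstt2 (combined SE 0.21, range over pairings -4.31 to -4.08) and by -3.19 relative to Gstt3 (combined SE 0.21, range -3.34 to -3.03).

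**Figure D2:**
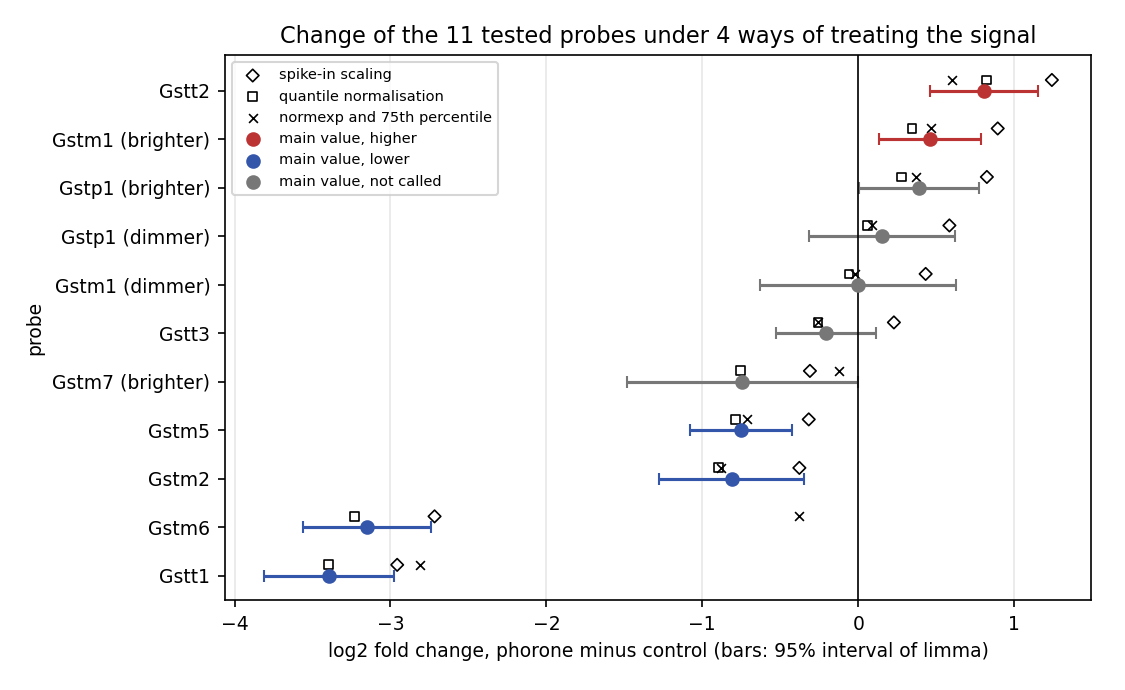
Log2 change, phorone minus control, of the 11 tested probes, with 95% intervals from limma; red was called higher, blue lower, grey not called, and the small black symbols give the value under spike-in scaling, quantile normalisation and normexp background correction. Gstt1 stays near -3 in all, the Gstm6 value, drawn as measured although that probe was not well above background with phorone, moves from -3.15 to -0.38 with normexp, and the spike-in symbols sit to the right of the main values.

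Ordered by their change, the tested probes other than Gstm6 ran from Gstt2 through the brighter Gstm1, the brighter and the dimmer Gstp1, the dimmer Gstm1, Gstt3, Gstm7, Gstm5 and Gstm2 to Gstt1. Neighbours in that order did not differ by more than 2 combined SE, except that Gstm2 and Gstt1 lay 2.58 apart (combined SE 0.24). Gstm6 has no place in this order, since its fall is known only as a bound.

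Along the chromosome, per the order in the RefSeq gene table, the mu cluster on chromosome 3 runs Gstm5, Gstm7, Gstm6, Gstm3, Gstm2, Gstm1, Gstm4 with no other coding gene inside. The falls of Gstm5, Gstm6 and Gstm2 and the rise of Gstm1 were interleaved with Gstm7 and Gstm3, which were not called. Of the 3 coding genes on either side of this cluster, 4 were tested and 3 fell. The changes were -1.44 for Csf1 (SE 0.12), -0.74 for Ahcyl1 (SE 0.12) and -0.52 for Gnat2 (SE 0.14). Gnat2 lost its call in 9 of 17 alternatives and Ahcyl1 in 3. On its other probe Ahcyl1 changed by 0.41 (SE 0.26) and was not called. Lower genes made up 21% of all genes tested by their brightest probe. Under spike-in scaling limma called none of the 4 lower (1 at an unadjusted p below 0.05, median change -0.20), without phorone replicate 1 it called 1, and with any other array left out 2. Csf1 encodes the macrophage growth factor and lay 1 gene beyond the end of the cluster.

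In the theta cluster on chromosome 10 the order is Gstt3, Gstt1, Gstt4, Gstt2. Gstt4 is a theta gene outside the 10. It read -4.46 and -4.55 in control samples and -1.83 and -2.32 in phorone samples, with no overlap. The rise of 2.43 (SE 0.20, adjusted p = 0.00125) was matched by 2.41 on its other probe. Relative to Gstt1, its neighbour, Gstt4 changed by 5.83 within arrays (combined SE 0.25, range 5.43 to 6.22). Of all genes tested by their brightest probe, 21% were lower. Around this cluster 5 flanking genes were tested and 2 fell. These were Susd2, to below background (at least 3.45-fold), and the cytokine gene Mif, which fell by 0.64 (SE 0.16). Mif lost its call in 5 of 17 alternatives. Cabin1 was not called on its brightest probe, at -0.37, or on another, at 0.42, but rose by 1.68 (SE 0.33) on its dimmest probe. Of the 5, 1 fell under spike-in scaling and without control replicate 2 or either phorone replicate.

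The pi cluster on chromosome 19 holds Gstp1, Gstp2 and Gstp3. No probe carries the name Gstp2, and Gstp3 was above background on no array. Of 5 flanking genes tested, Doc2g rose by 0.81 (SE 0.12) and 4 were not called. Among all genes tested by their brightest probe 23.8% were higher.

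**Figure D3:**
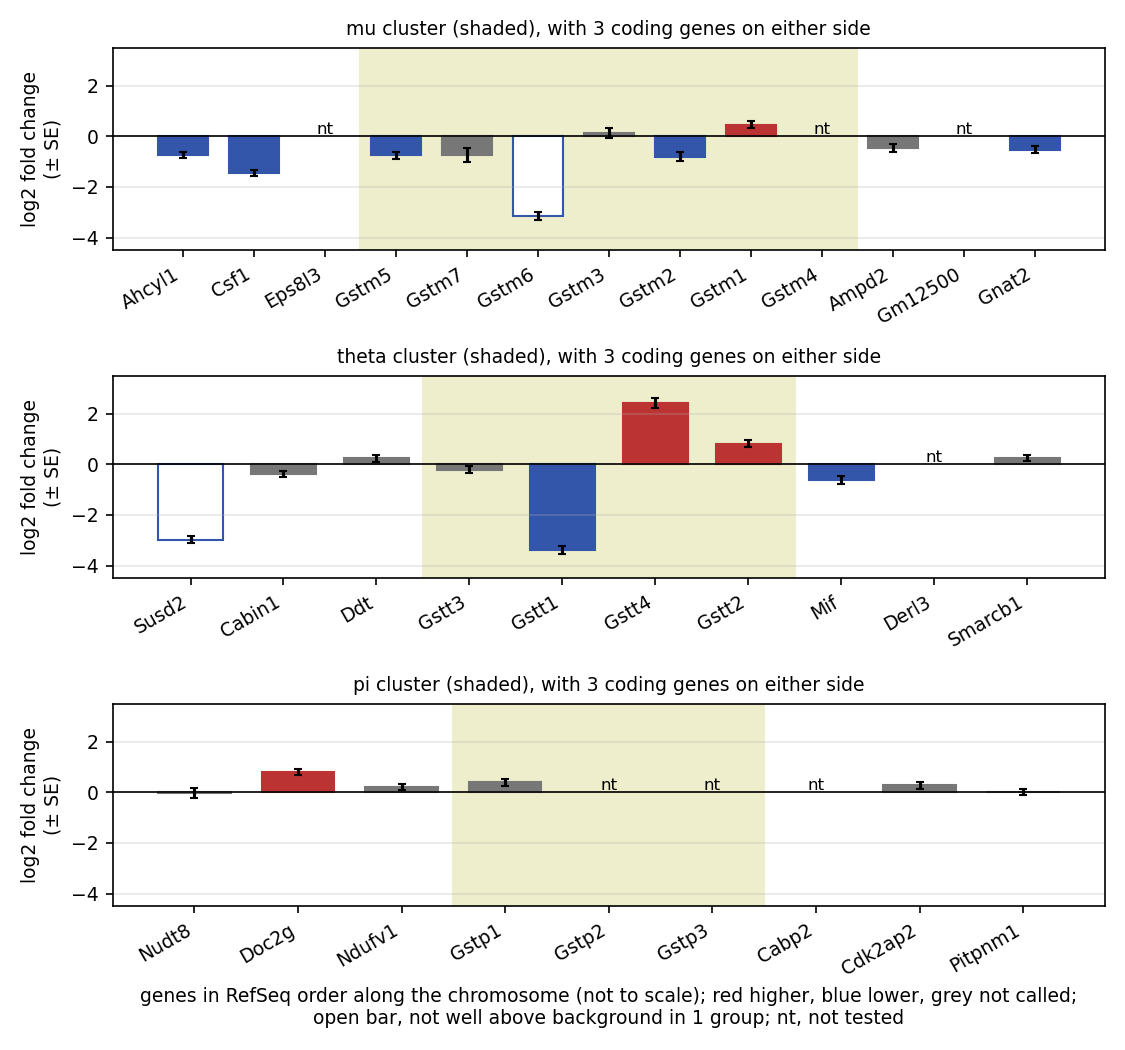
Log2 change with SE of each gene, brightest tested probe, in chromosome order for the mu, theta and pi clusters (shaded) and 3 coding genes on either side; red was called higher, blue lower, grey not called, open bars were not well above background in 1 group, and nt was not tested. Within the theta cluster Gstt1 at -3.39 stands beside Gstt4 at 2.43.

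Promoters were read from the RefSeq table of GRCm38.p6, from 250 bases before to 50 after each start, since genes within the mu and theta clusters moved differently. The table held 15 windows for 9 of the 10 genes, all but Gstt2. Both strands were searched for TGACNNNGC, a form of the core of the element that NRF2 binds. Of all 32851 windows of that length, 12.4% hold it. It was found in 2 of the 15 windows, for Gstm5 and Gstm7. TGANTCA, the AP-1 site, occurred in 7.81% of all windows and in 2 of the 15, for Gstm5 and Gstp1. GCGTG, the core of the xenobiotic response element, occurred in 32.4% of all windows. It lay in 4 of the 15, for Gstm1, Gstm5 and Gstp1. TATAAA occurred in 13.6% of all windows and in 3 of the 15. It began at base -30 for Gstm1, 41 for Gstm5 and -231 for Gstm7 relative to the start site. Capitals below mark the match in a stretch of each window, and the match begins at base -42 for Gstm5, -129 for Gstm7 and -74 for Gstp1 relative to the start site. The windows are chr3:107895604-107895903 (plus strand) for Gstm5, chr3:107931565-107931864 (minus strand) for Gstm7 and chr19:4037863-4038162 (minus strand) for Gstp1.

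Gstm5 NRF2 element core: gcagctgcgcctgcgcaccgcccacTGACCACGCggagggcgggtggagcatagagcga

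Gstm7 NRF2 element core: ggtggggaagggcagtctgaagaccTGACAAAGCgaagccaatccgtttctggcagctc

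Gstp1 AP-1 site: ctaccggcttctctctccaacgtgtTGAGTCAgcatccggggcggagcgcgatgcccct

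Of the 2 genes with TGACNNNGC in these windows, Gstm5 fell and Gstm7 was not called. Only that form was searched for NRF2. The Gstp1 stretch above reads TGAGTCAgc, which differs from it only by a G in place of the first C. A match is a description of the letters in this window, and elements outside it were not searched.

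The further transferases, listed together with the membrane-bound MAPEG family, were read by their brightest tested probe. Of 20 listed, 15 were tested, 7 rose and 5 fell, against 23.8% higher and 21% lower among 17033 genes, and their median change was 0.39, against 0.08 over all genes. Without control replicate 1, 7 rose and 3 fell, and under spike-in scaling 6 rose and 2 fell. The largest rises were in alpha-class genes: Gsta2 was at least 352-fold higher, Gsta1 rose by 9.17 (SE 0.21) and Gsta3 by 5.90 (SE 0.13). The alpha gene Gsta4 changed by 0.39 (SE 0.15) and was not called. Alox5ap, a MAPEG member that feeds arachidonic acid to 5-lipoxygenase and is not known as a transferase, fell by 3.60 (SE 0.16). Ptges, a prostaglandin E synthase, fell to below background (at least 2.29-fold), and the microsomal enzyme Mgst2 fell by 1.40 (SE 0.13). Of the 10 genes of the mu, pi and theta classes, 9 were tested on the same footing, 2 rose and 4 fell, and their median change was -0.74. That median is the value of Gstm7, which was near background and not called. It was -0.26 with normexp background correction and -0.31 under spike-in scaling. Over the 7 genes well above background on all 4 arrays it was -0.21.

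**Figure D4:**
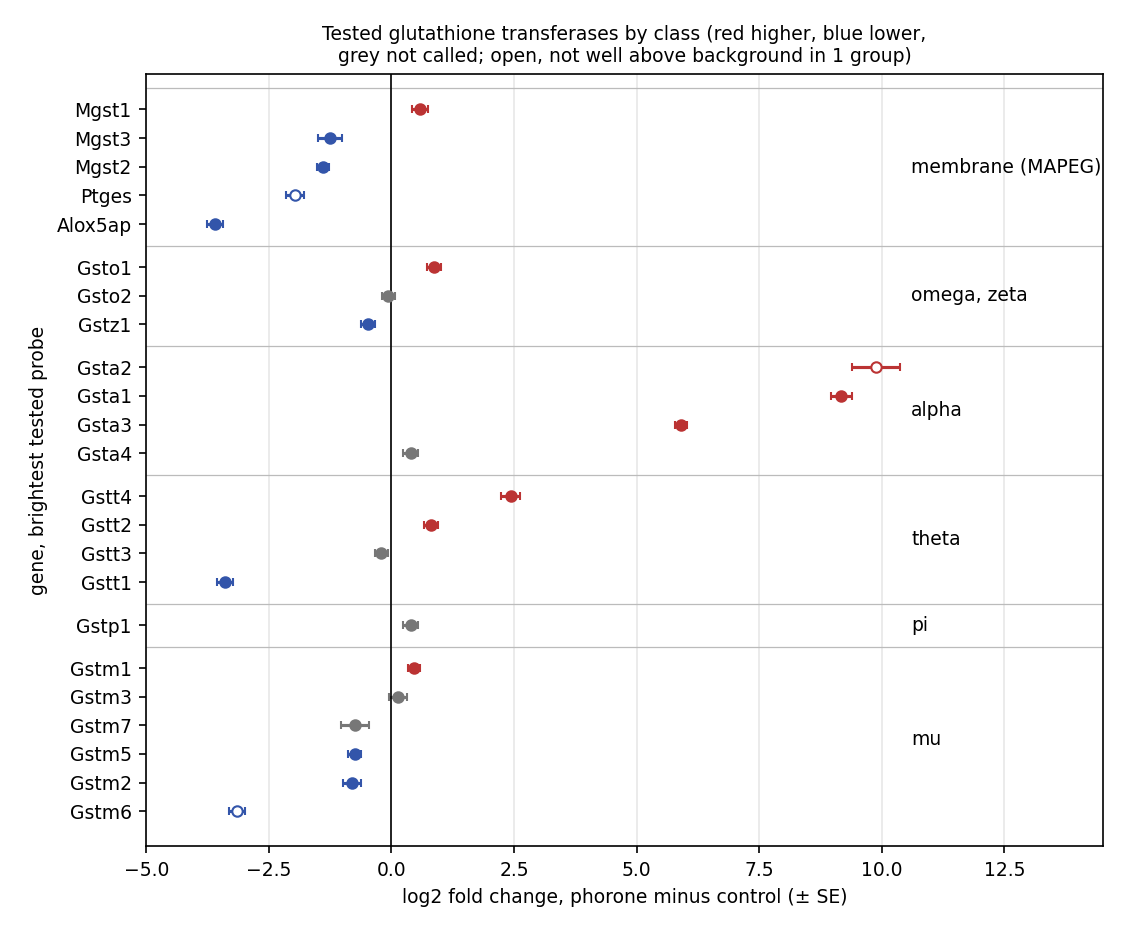
Log2 change with SE of the tested glutathione transferases by class, brightest tested probe, with the membrane-bound MAPEG family, which includes Alox5ap, at the top. Red was called higher, blue lower, grey not called, and open symbols were not well above background in 1 group. Gstcd, tested at 1.30, has no class here and is not drawn. In the alpha class Gsta1 and Gsta2 reach 9.17 and beyond and Gsta4 lies at 0.39, while the mu, pi and theta genes lie between -3.39 and 2.43.

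Genes that supply glutathione, the co-substrate, were mostly higher. Of 14 tested, 10 rose and 1 fell, with a median change of 1.31. Without control replicate 1, 3 fell, and without phorone replicate 2, 7 rose. The cystine carrier gene Slc7a11 rose by 5.78 (SE 0.22), and the glutamate-cysteine ligase subunits Gclm and Gclc by 3.24 (SE 0.14) and 2.59 (SE 0.19). Slc3a2 was not called on its brightest probe, which read 4.82 and -3.77 in the control samples (change 5.50, SE 2.70). That spot may be faulty, and its value enters the counts and the median. The other Slc3a2 probe rose by 1.22 (SE 0.26). Cbs, which makes cystathionine from homocysteine, fell by 2.41 (SE 0.32). The 14 also held Chac1, Chac2 and Ggct, genes of glutathione breakdown. Chac2 rose by 0.69 (SE 0.20) and Ggct by 0.86 (SE 0.14), both counted among the 10, and Chac1 was not called. Among genes for export and breakdown of glutathione conjugates, 15 were tested. Of these 1 rose and 8 fell, against 23.8% and 21% over all genes. The median of the 15 was -0.45. That median was -0.01 under spike-in scaling and -1.49 by the mean of the probes of a gene, by which 3 rose. Keeping only probes well above background on all 4 arrays gave 13 tested, 1 higher and 6 lower. Abcc4, a conjugate exporter, rose by 1.20 (SE 0.14) and by 2.31 on its other probe. The exporter genes Abcc1 and Abcc5 were not called on their brightest probes, but 2 further Abcc1 probes (0.54 and 0.52) and 1 further Abcc5 probe (0.90) were called higher. Ggt6 and Ggt5, of the gamma-glutamyltransferase family that trims the glutathione part, fell to below background, by at least 7.02-fold and at least 4.16-fold. Without control replicate 2 the Ggt5 call was lost (adjusted p = 0.0603). Anpep, the aminopeptidase of the next step, fell by 3.58 (SE 0.14).

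Regulators known to act on transferase genes gave 13 tested, of which 5 rose and 1 fell, with a median of 0.38. Nfe2l2, the gene for NRF2, and Keap1 were among the 7 not called. Nfe2l2 changed by 0.29 (SE 0.17) and 0.19 (SE 0.14) on its probes, and Keap1 by 0.39 (SE 0.13). Maff and Mafg, small MAF partners of NRF2, rose by 1.61 (SE 0.20) and 1.05 (SE 0.15). Nr1i3, the constitutive androstane receptor, rose by 1.18 (SE 0.15). Rxra, the retinoid X receptor that pairs with it, fell by 0.62 (SE 0.14) on its brightest probe and rose by 0.78 on another. Without phorone replicate 2, 3 of the regulators rose, and limma called none lower, with 0 at an unadjusted p below 0.05. Without phorone replicate 1, 4 rose and none was called lower, with 1 at an unadjusted p below 0.05.

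The genes most like Gstt2, by the distance between values centred on their mean over the 4 arrays, were Pigw (distance 0.02), Atg4d (0.02) and Gm7935 (0.03). Those most like Gstt1 were Psmb8, Phf11b and Gamt, each at a distance of 0.11. Over 4 arrays in 2 groups such likeness rests mainly on the size of the change.

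Of 12 fibroblast markers all were tested and 10 were well above background on all 4 arrays. None of them rose and 8 fell, against 23.8% higher and 21% lower among all genes tested by their brightest probe. Their summed linear level, in multiples of the 75th percentile, was 1633 to 1709 in control and 704 to 745 in phorone samples. Fap and Lum were below background with phorone. Hepatocyte markers, for the tissue where mu transferases are best known, were near the detection limit: of 7 on the array 5 were well above background on none, their summed level was 0.21 to 0.28 in control and 0.33 to 0.34 in phorone samples, and Tat alone was tested and rose by 1.18. Of 6 macrophage and leukocyte markers 4 were tested, Cd68 rose by 1.26, Lyz2 fell by 1.74 (2 rose without control replicate 2), and the summed level was 4.19 to 5.00 in control and 5.04 to 5.07 in phorone samples. Of 6 adipocyte markers 3 were tested and Lpl and Fabp4 fell, with changes of -0.83 and -0.65 and a summed level of 21.6 to 25.8 in control and 14.8 to 16.7 in phorone samples. Under spike-in scaling limma called none of these 3 lower, with 0 at an unadjusted p below 0.05, and 1 was lower without control replicate 1 or without either phorone replicate. Of 5 markers each, 1 was tested for skeletal muscle (Des, which fell by 1.79), epithelium (Krt8, at 0.08 and not called) and endothelium (Tek, which fell to below background), with all 3 summed levels below 1 on each array. The part of these shifts in the changes of the mu, pi and theta genes was not tested.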

How the data were processed

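Members and gene lists were chosen with earlier results of these data known. Groups and replicate numbers came from the sample titles. Per the file headers, each deposited intensity is a processed signal from Feature Extraction 10.7.3.1 (Agilent), and the custom mouse design names mm9 as its build: local background is subtracted and very dim spots hold surrogate values, with no scaling between arrays. A value table that the authors deposited gives these probes on a log2 scale. Its columns equalled log2 of the processed signal minus 1 number per array (SD at most 0.0223), with medians of -4.39, -4.35, -4.37 and -4.30, so scale and centring at the 75th percentile are known.

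From the processed signal, log2 was taken, the 75th percentile of each array subtracted, and spots of a probe averaged. Leaving out outlier spots cost 111 probes. To be tested, a probe had to be well above background on both arrays of a group. limma 3.58.1 in R 4.3.3 was run on all 24207 such gene probes (two-sided, 2 residual and 3.08 prior degrees of freedom), with Benjamini-Hochberg adjustment over all of them, and tested on simulated data. For a probe dim on both arrays of a group, the bound compares the bright group's mean with the mean, over the dim arrays, of whichever was higher, the probe's value or the lowest value well above background.

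All members were named with every probe. From each list up to 3 called genes each way with the largest change were named, and all mu, pi or theta genes. Some others were named to show limits or context. RefSeq names (GRCm38.p6) matched 28128 gene probes (69.2%). Alternatives covered background correction, scaling, filters, variance prior, probe summary, source of values, the replicate block and each array left out.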

Additional observations from a re-analysis of the deposited data

How the results depend on the processing

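With 2 arrays a group, each array bears heavily on the calls. Totals with 1 array left out can hold other probes than the main totals. Without phorone replicate 2, Gstm4 was tested and counted as higher on phorone replicate 1 alone, while the brighter Gstm1 probe lost its call. In the same run Gstm7 was counted as lower, while Gstm2 and Gstm5 lost their calls. Of the values of member probes under 17 alternatives, 154 kept direction and side of the threshold, 17 lost the call, 4 gained it and 6 turned sign. For the genes of the other lists, under the same alternatives applied after the data were seen, the numbers were 408, 25, 0 and 3. Member probes called higher numbered 1 in place of 2 under quantile normalisation, median scaling, spike-in scaling, no filter on dim probes, and the mean of the probes of a gene, and 0 to 2 with 1 array left out. The 0 came without phorone replicate 1, where limma gave 1 probe higher at an unadjusted p below 0.05. Member probes called lower numbered 2 in place of 4 under spike-in scaling and 3 to 4 with 1 array left out. Over all gene probes, 3823 were higher without the filter in place of 6168, and 3311 to 5518 with 1 array left out. Lower probes numbered 1611 under spike-in scaling in place of 4919, and 3277 to 4828 with 1 array left out.

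The replicate number as a block gave 1 member probe higher and 5 lower, with Gstm7 called (adjusted p = 0.0289), and 5253 higher and 4501 lower gene probes. Same-numbered arrays did not deviate together: across probes the difference between control arrays and that between phorone arrays correlated at -0.04. This value cannot tell whether samples with the same number were grown or handled as pairs. The numbers also mark the slide column.

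Signs turned for values near 0. The dimmer Gstm1 probe was 0.43 under spike-in scaling, 0.0024 in the deposited table and -0.30 to 0.30 with 1 array left out. The dimmer Gstp1 probe ran from -0.067 (without control replicate 1) to 0.37 with 1 array left out, Gstt3 was 0.23 under spike-in scaling, Gstm3 ran from -0.046 to 0.32, below 0 without control replicate 1 or phorone replicate 1, and Rxra was 0.083 by the mean of its probes. Where no value or construction shows a cause, the cause was not tested. Signal over background limits Gstm4, Gstm6 and Gstm7.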
